A study of Mus musculus with 14 samples.

Results

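The genes described here encode calmodulin, the calmodulin-dependent kinases and the catalytic subunits of calcineurin in mouse PiC neurons. They are the 9 rows of the count table with the symbols Calm2, Calm3, Camk2b, Camk2d, Camk2g, Camk4, Camk1d, Ppp3ca and Ppp3cb, of 55401 rows in all. All 9 passed the filter on low counts, which left 14599 genes for testing. The neurons came from wild-type C57BL/6 mice in which a retrograde virus, AAVretro-EGFP (0.1 µl per injection), had been placed either in PrL or in MeA, so that EGFP marked PiC cells with axons reaching that target. A tube of 4 to 5 fluorescent cells drawn into a micropipette made 1 library of poly(A) RNA, prepared with the full-length SMART-Seq2 method. There were 4 libraries from female PiC-PrL neurons, 4 from male PiC-PrL neurons, 3 from female PiC-MeA neurons and 3 from male PiC-MeA neurons. All of the mice carried the virus, and no group without injection was analysed here. The labels give neither ages nor collection dates and do not say whether tubes of a group came from separate animals, so that p-values measure the spread between tubes, which may be partly technical.

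Calcium entering an active neuron binds calmodulin, a small protein that carries no enzyme activity of its own and acts by wrapping around its targets. Among these targets are CaM kinase II, a multi-subunit kinase of synapses built from the products of Camk2a, Camk2b, Camk2d and Camk2g, and CaM kinases I and IV, which are switched on further by an upstream CaM kinase kinase. Calcineurin is the opposing phosphatase: its catalytic subunit, made from Ppp3ca or Ppp3cb in brain, is activated by calmodulin and removes phosphates from NFAT transcription factors and from synaptic proteins. The mouse genes Calm2 and Calm3 encode the same calmodulin protein from different DNA, which is why their messages can be counted apart.

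The coding sequences of Calm2 and Calm3 are shown because reads from this part can be told apart only where the bases differ. Exons hold 1467 bases in Calm2 and 2423 in Calm3, and the bases outside the coding sequence were not compared. The first 150 coding bases are given from the GENCODE M21 transcripts (build GRCm38), 5′ to 3′, with capitals at each position where the genes do not share the same base. They differ at 23 of these bases.
Calm2: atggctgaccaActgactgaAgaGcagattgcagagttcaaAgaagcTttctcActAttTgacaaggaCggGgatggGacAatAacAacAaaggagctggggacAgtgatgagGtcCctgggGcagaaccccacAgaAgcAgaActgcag
Calm3: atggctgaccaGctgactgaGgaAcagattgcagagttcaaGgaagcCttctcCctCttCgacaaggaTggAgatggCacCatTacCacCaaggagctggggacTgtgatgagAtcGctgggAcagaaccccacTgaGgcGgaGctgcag
Over the whole coding sequence of 450 bases, Calm2 and Calm3 differed at 78 bases (82.7% identity), and their longest identical run was 17 bases. Within the coding sequence, a read that spans more than such a run differs between the genes at 1 or more bases. Closer copies exist among processed pseudogenes, which are reverse-transcribed copies of a message inserted elsewhere in the genome. Gm7308 matched 447 bases of Calm2 at 96.9% identity, and its own count was 0.278% to 1.26% of the Calm2 count in the 14 libraries. Gm5881 matched 367 bases of Calm3 at 96.2% identity, and its count was 0.195% to 13.4% of the Calm3 count. Reads that fit a gene and its copy equally well may have been assigned to either, so the Calm3 values carry that uncertainty.

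The libraries held 6132985 to 15392217 counts assigned to genes. At least 1 count was found for 12479 to 14908 genes in 11 libraries and for 18964 to 20014 genes in the 3 male PiC-MeA libraries, which stand apart in this respect. Mitochondrial genes took 3.29% to 15.3% of counts. The neuronal identity of the tubes was checked with 6 pan-neuronal markers, whose summed level was 10819 to 16731 CPM in female PiC-PrL, 12745 to 20549 in male PiC-PrL, 7531 to 10361 in female PiC-MeA and 7169 to 9591 in male PiC-MeA; Tubb3, one of the 6, was at 0 in every library. Here CPM is a count scaled to a common library size, with the TMM correction for differences in RNA composition. Summed excitatory markers (6 genes) lay between 173 and 973 CPM and summed inhibitory markers (8 genes) between 41.8 and 5659 CPM over all libraries. The inhibitory sum was highest in female PiC-PrL replicates 4 and 1 (5659 and 2783 CPM) and in male PiC-MeA replicate 3 (3206 CPM). Astrocyte markers (7 genes) summed to 691 to 770 CPM in female PiC-MeA, with Aqp4 and Gjb6 at 0, and to 1652 to 5963 CPM in the other 3 groups. Gfap, also on that list, went the other way in females, at 19.4 to 50.7 CPM in PiC-MeA and 0 to 5.87 CPM in PiC-PrL. In tubes of whole cells, fewer cells of a type and less RNA per cell cannot be told apart.

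Calm2 was by far the most abundant of these messages, and the genes spanned a wide range of levels. Per kilobase of exon, which allows levels to be compared between genes, the mean over the 4 groups was 8532 CPM for Calm2 and 134 CPM each for Calm3 and Ppp3ca. Camk4 followed at 79.0 CPM per kilobase, then Ppp3cb at 33.7, Camk2b at 31.6, Camk1d at 26.7, Camk2g at 21.8 and Camk2d at 6.74. On the same scale Camk2a, the remaining CaM kinase II gene, reached 112 CPM per kilobase. Exon lengths cover every annotated isoform, so genes with long, rarely used exons, such as Camk2d with 22493 exon bases, are placed lower than their transcripts in use would be. Every one of the 9 genes was counted in all 14 libraries. The ratio of the highest to the lowest library was 3.86 to 5.75 for 7 of them, 10.8 for Camk2g and 13.2 for Camk2d.

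**Figure D1:**
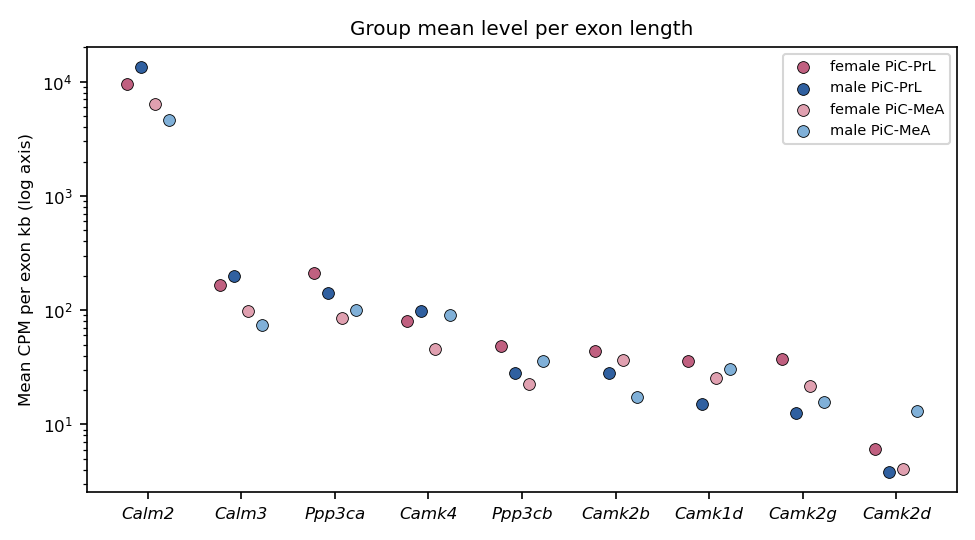
Level of each gene as CPM per kilobase of exon on a log axis, with 1 point per group at the mean of its libraries (n = 4 in PiC-PrL, n = 3 in PiC-MeA). Calm2 lies above the other 8 genes in every group, Calm3 and Ppp3ca share a mean over the 4 groups of 134 CPM per kilobase, and Camk2d is lowest on average at 6.74.

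Calm2 lies on chromosome 17 (mm10, 87433412 to 87446935, minus strand) and has 1467 exon bases in GENCODE M21. Its level was 12533, 20522, 13879 and 9639 CPM in the female PiC-PrL libraries and 15319, 21573, 14253 and 27506 CPM in the male PiC-PrL libraries. It was 8899, 10867 and 8536 CPM in female PiC-MeA and 5233, 9449 and 5804 CPM in male PiC-MeA. All 4 male PiC-PrL libraries were above all 3 male PiC-MeA libraries, whereas the female groups overlapped. As a share of all counts in a library, Calm2 made up 1.40% to 2.04% in male PiC-PrL and 0.627% to 1.11% in male PiC-MeA, and its rank among the most counted genes of a library was 2 to 11.

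In males, Calm2 fell in PiC-MeA relative to PiC-PrL neurons: the means were 6829 ± 2287 CPM (SD, n = 3) and 19663 ± 6146 CPM (SD, n = 4), a log2 change of −1.53 ± 0.29 (SE). It was the only 1 of the 9 genes to pass in this comparison with edgeR's quasi-likelihood test (Benjamini-Hochberg adjusted p = 0.0237 over all genes tested), against 88 genes or 0.603% of all genes. The call did not hold in every setting. Without male PiC-PrL replicate 2, male PiC-PrL replicate 4 or male PiC-MeA replicate 3, the edgeR adjusted p was 0.0713, 0.0849 and 0.0994. Male PiC-MeA replicate 3 was the library with the fewest counts (6132985) and the highest mitochondrial share (15.3%). Scaling by library totals in place of TMM, chosen after the values had been seen, moved the median of all genes by 0.37 and gave −1.09 for Calm2 (edgeR adjusted p = 0.0750) beside a median of 0.53 for all genes. Limma voom gave −1.01 (adjusted p = 0.450). When the fit also held each library's count of detected genes as a term, the sign turned, to 0.42 (edgeR adjusted p = 1.0). The male PiC-MeA group is also the group with more detected genes, so detection and group cannot be told apart in this comparison.

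The order of the group means for Calm2 was male PiC-PrL, female PiC-PrL, female PiC-MeA and male PiC-MeA, and each neighbouring pair in that order overlapped. In females the difference between the projections was −0.58 ± 0.28 (edgeR adjusted p = 0.453), with means of 9434 ± 1254 CPM (SD, n = 3) in PiC-MeA and 14143 ± 4606 CPM (SD, n = 4) in PiC-PrL. The male minus female difference was 0.48 ± 0.26 in PiC-PrL and −0.47 ± 0.30 in PiC-MeA (edgeR adjusted p = 0.424 and 0.659). These sex differences differed from each other by −0.94 ± 0.39, which did not pass (edgeR adjusted p = 0.251). The summed level of the pan-neuronal markers was also lower in male PiC-MeA than in male PiC-PrL. Most of that sum was Snap25, with means of 6061 and 13299 CPM. Snap25 and Stmn2 were lower without overlap, and Rbfox3 and Syt1 had lower means with overlap. Map2 had a higher mean in male PiC-MeA (466 against 442 CPM). Expressed as a percentage of the pan-neuronal sum, a measure chosen after the values had been seen, Calm2 was 93.7% to 134% in male PiC-PrL and 65.8% to 98.5% in male PiC-MeA, ranges that overlap. The part of the marker levels in the Calm2 difference was not tested.

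**Figure D2:**
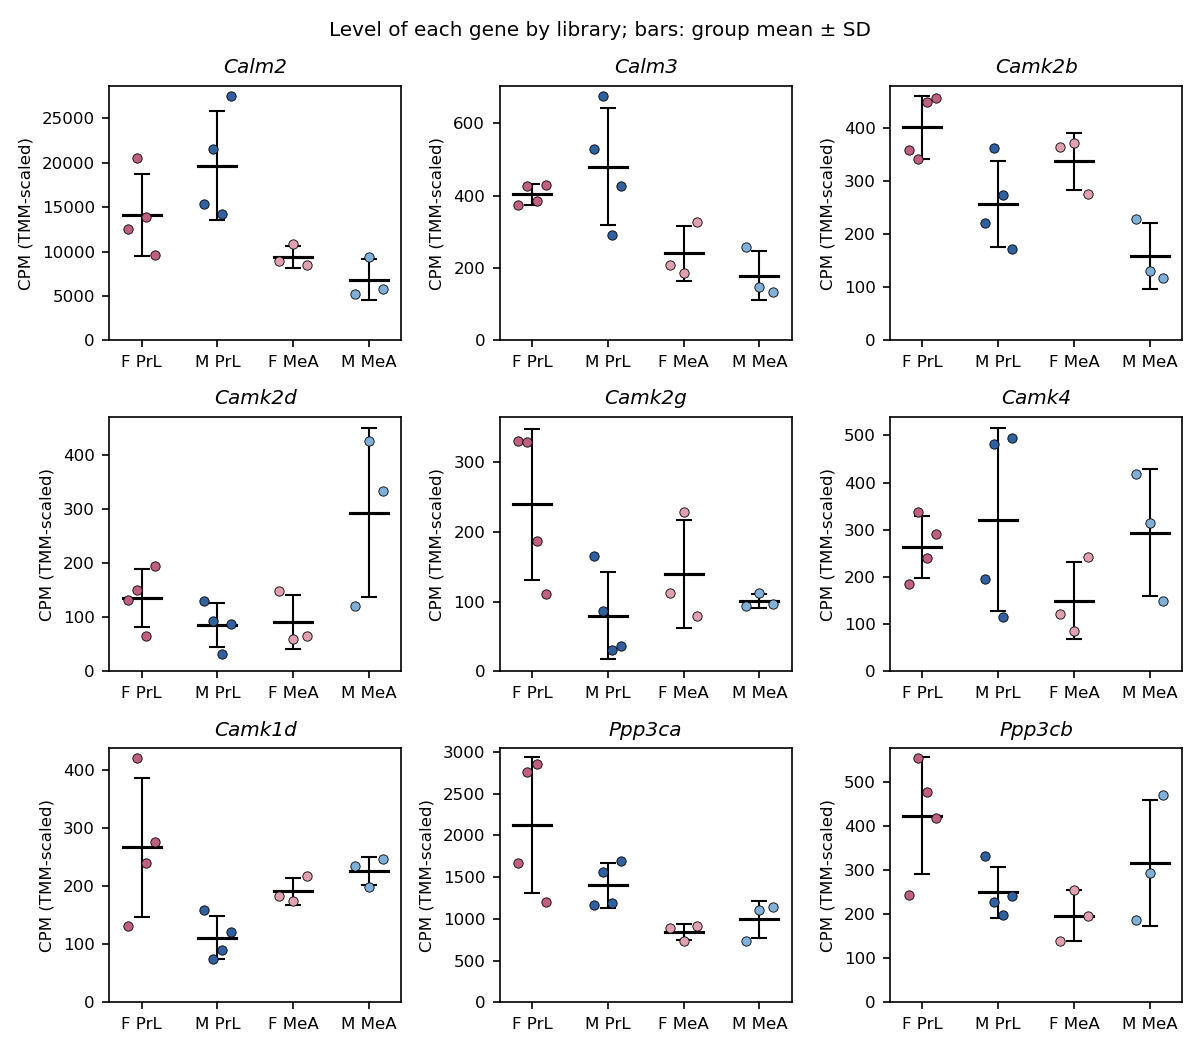
CPM of each of the 9 genes in each of the 14 libraries, by group (F, female; M, male; PrL and MeA, the injected target), with 1 point per library and bars for the group mean ± SD. For Calm2 and Calm3 all male PiC-MeA points lie under all male PiC-PrL points, and for Camk2d male PiC-MeA holds the highest mean, 293 CPM, with a wide spread.

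Calm3, the less abundant calmodulin gene counted here, lies on chromosome 7 (mm10, 16915379 to 16924114, minus strand). It measured 374, 427, 384 and 430 CPM in female PiC-PrL and 529, 674, 290 and 427 CPM in male PiC-PrL. In PiC-MeA it measured 209, 185 and 327 CPM in females and 257, 148 and 133 CPM in males. The PiC-MeA libraries lay below the PiC-PrL libraries in each sex with no overlap. The projection difference was −0.75 ± 0.37 in females (edgeR adjusted p = 0.477) and −1.42 ± 0.38 in males (edgeR adjusted p = 0.0790), so neither passed. In males both DESeq2 and limma voom called Calm3. The sex differences were 0.25 ± 0.34 in PiC-PrL and −0.42 ± 0.39 in PiC-MeA (edgeR adjusted p = 0.851 and 0.933).

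Calm2 exceeded Calm3 per kilobase by 33.7-fold to 106-fold over the 14 libraries, a 3.16-fold range in their ratio. Of their combined level per kilobase, Calm2 made up 97.1% to 99.1% in every library, with group means between 98.2% and 98.5%. None of the 4 comparisons of this share passed (exact two-sided permutation tests, adjusted p of 0.914 or higher over 12 share tests). The smallest p such a test could give was 0.0286, 0.0571 or 0.1, depending on the group sizes. After adjustment over the 12, no share test could therefore pass, so these tests cannot decide whether the shares differ. Together Calm2 and Calm3 took 1.43% to 2.07% of counts in male PiC-PrL, 0.932% to 1.58% in female PiC-PrL, 0.954% to 1.14% in female PiC-MeA and 0.658% to 1.12% in male PiC-MeA.

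Among the CaM kinase II genes, Camk2b encodes the subunit that also binds actin filaments. It lies on chromosome 11 (mm10, 5969644 to 6066362, minus strand). Camk2b measured 359, 342, 449 and 457 CPM in female PiC-PrL and 221, 362, 274 and 171 CPM in male PiC-PrL. It measured 364, 371 and 276 CPM in female PiC-MeA and 230, 130 and 117 CPM in male PiC-MeA. Both male groups had lower means than both female groups, and in PiC-MeA the sexes did not overlap. The sex difference was −1.08 ± 0.40 in PiC-MeA (edgeR adjusted p = 0.304) and −0.64 ± 0.34 in PiC-PrL (edgeR adjusted p = 0.415), and neither passed. In PiC-MeA limma voom called it. The projection differences were −0.25 ± 0.37 in females and −0.69 ± 0.37 in males (edgeR adjusted p = 0.961 and 0.303).

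Camk2b was set against Camk2a, because the ratio of these subunits in the holoenzyme differs between neuron types and with activity. Camk2a itself lay between 630 and 820 CPM in female PiC-PrL, 674 and 926 in male PiC-PrL, 844 and 1210 in female PiC-MeA and 159 and 1670 in male PiC-MeA. The Camk2b share of the Camk2a plus Camk2b level per kilobase was 32.4 ± 4.86% in female PiC-PrL (SD, n = 4), 20.6 ± 4.20% in male PiC-PrL (SD, n = 4), 20.4 ± 0.633% in female PiC-MeA (SD, n = 3) and 21.6 ± 14.3% in male PiC-MeA (SD, n = 3). Female PiC-PrL libraries, at 26.4% to 37.2%, lay above the 19.9% to 21.1% of female PiC-MeA with no overlap. That difference of −12.0 points gave p = 0.0571 in an exact two-sided permutation test, where 3 against 4 libraries cannot go lower (adjusted p = 0.343). The sex difference in PiC-PrL was −11.8 points (exact two-sided permutation p = 0.0571, adjusted p = 0.343). In male PiC-MeA the 3 libraries ranged from 10.1% to 37.6%.

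**Figure D3:**
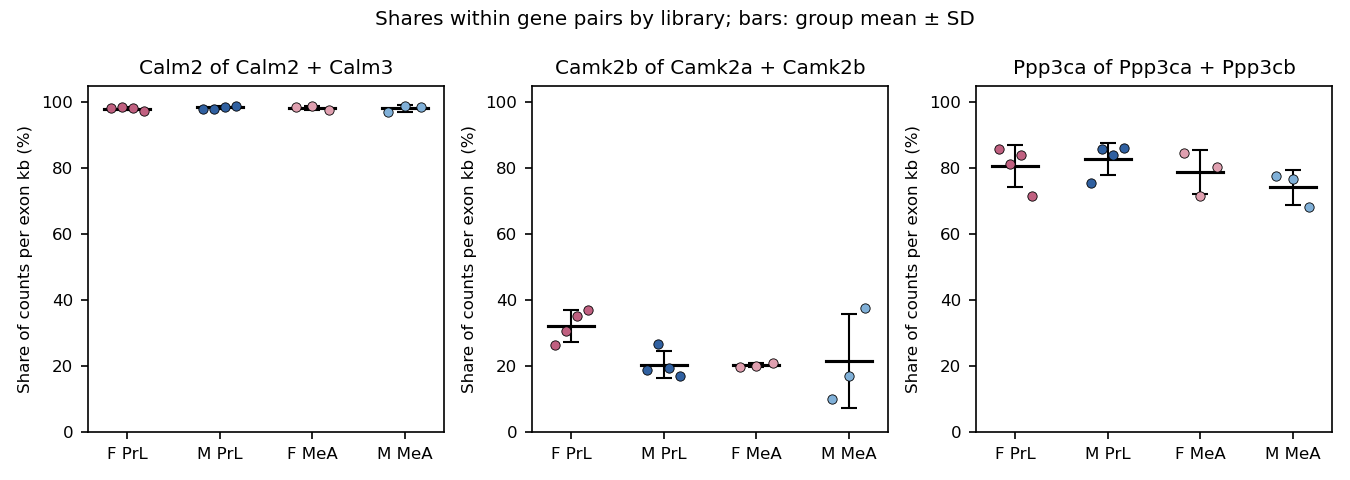
Share of Calm2 in Calm2 plus Calm3, of Camk2b in Camk2a plus Camk2b and of Ppp3ca in Ppp3ca plus Ppp3cb, in percent of the level per kilobase of exon, with 1 point per library and the group mean ± SD. The Camk2b share is highest in female PiC-PrL at a mean of 32.4%, and the Calm2 share stays between 97.1% and 99.1%.

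Camk2d, whose product is the delta subunit known best from heart muscle, lies on chromosome 3 (mm10, 126596302 to 126846326, plus strand). It measured 132, 151, 64.8 and 194 CPM in female PiC-PrL, 130, 93.0, 32.2 and 87.4 CPM in male PiC-PrL and 149, 60.0 and 66.1 CPM in female PiC-MeA. In male PiC-MeA it measured 121, 426 and 333 CPM. Replicates 2 and 3 of that group were above every other library, whereas replicate 1 was within the range of the other groups. Its differences had the opposite sign to those of Calm2 and Calm3 in 3 of the 4 comparisons, the projection in females being the exception. The projection difference in males was 1.78 ± 0.59 (edgeR adjusted p = 0.0927) and the sex difference in PiC-MeA was 1.68 ± 0.65 (edgeR adjusted p = 0.318). DESeq2 called the former. The sex differences in the 2 projections differed by 2.34 ± 0.85 (edgeR adjusted p = 0.188). In PiC-PrL the sex difference was −0.66 ± 0.55, and in females the projection difference was −0.56 ± 0.60 (edgeR adjusted p = 0.684 and 0.895).

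Camk2g, the gene of the gamma subunit, lies on chromosome 14 (mm10, 20734875 to 20794088, minus strand). Female PiC-PrL libraries measured 330, 329, 187 and 111 CPM and male PiC-PrL libraries 165, 86.5, 30.4 and 36.1 CPM. The sex difference was −1.59 ± 0.58, with an unadjusted edgeR p of 0.0145 and an adjusted p of 0.283, and the sexes overlapped. Female PiC-MeA libraries measured 112, 228 and 79.4 CPM, and male PiC-MeA libraries 93.5, 112 and 96.6 CPM. The male PiC-MeA libraries lay close together, at 101 ± 10.01 CPM (SD, n = 3), within the range of female PiC-MeA. The remaining differences were −0.47 ± 0.66 for sex in PiC-MeA, −0.78 ± 0.63 for projection in females and 0.34 ± 0.61 for projection in males (edgeR adjusted p of 0.796 or higher).

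Camk4 encodes CaM kinase IV, a mainly nuclear kinase that phosphorylates CREB. It measured 186, 338, 240 and 291 CPM in female PiC-PrL, 196, 482, 115 and 494 CPM in male PiC-PrL, 122, 85.9 and 242 CPM in female PiC-MeA and 418, 315 and 150 CPM in male PiC-MeA. Every pair of groups neighbouring in order of their means overlapped. The largest of its differences were 0.97 ± 0.57 for sex in PiC-MeA and −0.81 ± 0.54 for projection in females (edgeR adjusted p = 0.579 and 0.671). In males the projection difference was −0.13 ± 0.53, and in PiC-PrL the sex difference was 0.29 ± 0.49 (edgeR adjusted p = 0.954 and 0.895). Both signs turned under other settings.

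Camk1d, which encodes a CaM kinase I isoform, lies on chromosome 2 (mm10, 5293457 to 5714515, minus strand). It measured 131, 420, 240 and 275 CPM in female PiC-PrL and 159, 74.6, 89.9 and 121 CPM in male PiC-PrL. In PiC-MeA the females measured 182, 174 and 217 CPM and the males 234, 198 and 246 CPM. Male PiC-PrL stood lowest, below both PiC-MeA groups without overlap and overlapping female PiC-PrL only through that group's replicate 1. The sex difference in PiC-PrL was −1.26 ± 0.41 with an unadjusted edgeR p of 0.00676 and an adjusted p of 0.283, and DESeq2 called it. The projection difference in males was 1.02 ± 0.44, with an unadjusted edgeR p of 0.0305 and an adjusted p of 0.165. In PiC-MeA the sexes differed by 0.24 ± 0.47, and in females the projections differed by −0.48 ± 0.44 (edgeR adjusted p = 0.9999 and 0.851).

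Ppp3ca and Ppp3cb encode the alpha and beta catalytic subunits of calcineurin. Ppp3ca lies on chromosome 3 (mm10, 136670124 to 136937727, plus strand) and Ppp3cb on chromosome 14 (mm10, 20499364 to 20546573, minus strand). Ppp3ca measured 1667, 2760, 2853 and 1208 CPM in female PiC-PrL and 1166, 1560, 1185 and 1690 CPM in male PiC-PrL. It measured 885, 739 and 920 CPM in female PiC-MeA and 739, 1103 and 1144 CPM in male PiC-MeA. All 8 PiC-PrL libraries were above all 6 PiC-MeA libraries in CPM. As a percentage of the pan-neuronal marker sum the order in males was the reverse, also without overlap: 7.78% to 9.15% in PiC-PrL and 10.3% to 13.0% in PiC-MeA. In females that percentage was 11.2% to 19.5% in PiC-PrL and 7.13% to 12.2% in PiC-MeA, with overlap. The marker sum was mostly Snap25. The projection difference in females was −1.32 ± 0.31, with an edgeR p of 0.000525 and an adjusted p of 0.370, in a comparison where no gene of the whole table passed with edgeR. DESeq2 called Ppp3ca there. In males the difference was −0.49 ± 0.30 (edgeR adjusted p = 0.404). The sex difference was −0.60 ± 0.28 in PiC-PrL (edgeR adjusted p = 0.336) and 0.23 ± 0.32 in PiC-MeA (edgeR adjusted p = 0.9999).

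Ppp3cb measured 243, 556, 477 and 420 CPM in female PiC-PrL, 333, 228, 199 and 242 CPM in male PiC-PrL, 140, 256 and 196 CPM in female PiC-MeA and 187, 293 and 471 CPM in male PiC-MeA. The projection difference was −1.10 ± 0.41 in females (edgeR adjusted p = 0.403) and 0.34 ± 0.40 in males (edgeR adjusted p = 0.765). The sex difference was −0.76 ± 0.37 in PiC-PrL and 0.68 ± 0.43 in PiC-MeA (edgeR adjusted p = 0.368 and 0.651), and these differed by 1.44 ± 0.57 (edgeR adjusted p = 0.225). Ppp3ca supplied most of the catalytic subunit message in every library: its share of the Ppp3ca plus Ppp3cb level per kilobase was 68.2% to 86.1%. The group means of that share were 80.8% in female PiC-PrL, 82.9% in male PiC-PrL, 79.1% in female PiC-MeA and 74.3% in male PiC-MeA. No comparison of them passed (exact two-sided permutation tests, adjusted p of 0.686 or higher), and none could, as for the other shares.

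Taking the 9 genes comparison by comparison, sex in PiC-PrL gave no call with edgeR, as for all genes (0%). At an unadjusted p below 0.05, 3 of the 9 differed, Camk1d, Camk2g and Ppp3ca, each with a lower mean in males, against 14.3% of all genes. DESeq2 called 1 of the 9, against 7.59% of genes, and limma voom none, against 0.0548%. The log2 change was negative for 6 of the 9, against 50.6% of genes, with a median of −0.64 against −0.02 over all genes. The sexes overlapped for all 9 in PiC-PrL, whereas 3.51% of genes did not overlap in one direction or the other. Sex in PiC-MeA likewise gave no edgeR call among the 9 or over all genes (0%). Here 2 of the 9, Camk2b and Camk2d, had an unadjusted p below 0.05, against 12.4% of genes, and they differed in opposite directions. Limma voom called Camk2b alone, against 11.9% of genes, and DESeq2 none, against 5.68%. The change was negative for 4 of the 9, against 46.4%, and Camk2b was 1 gene of the 8.76% that were lower in males without overlap.

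For the projection in females all 9 log2 changes were negative, that is, lower in PiC-MeA, where 51.8% of all genes were negative. They were negative in all 225 refits of the 9 genes under the alternative settings. These refits reuse the same female libraries, and many settings leave the female groups unchanged, so they are not separate evidence. Their median was −0.75 against −0.06 for all genes, yet none passed with edgeR, as for all genes (0%). Ppp3ca and Ppp3cb had an unadjusted p below 0.05, against 11.1% of genes. DESeq2 called Ppp3ca alone, against 4.59% of genes, and limma voom none, against 0.212%. Calm3 and Ppp3ca were lower without overlap, against 3.97% of genes. The summed pan-neuronal, inhibitory and astrocyte markers were each also lower in female PiC-MeA than in female PiC-PrL without overlap. Single markers did not all follow their sum. Gad1, Npy, Erbb4, Slc1a2 and Aldoc were among those lower without overlap, whereas Snap25 and Adarb2 overlapped and Slc32a1 was at 0 in both groups. Gfap was higher in female PiC-MeA without overlap (19.4 to 50.7 against 0 to 5.87 CPM). As a percentage of the pan-neuronal sum, 6 of the 9 genes had a lower mean in PiC-MeA and 3 a higher one: Calm2 (103% against 101%), Camk2b (3.66% against 3.03%) and Camk1d (2.14% against 1.93%). The part of the inhibitory and astrocyte markers in these values was not tested.

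For the projection in males the 9 genes divided: 5 were negative and 4 positive, with a median of −0.13 against 0.16 for all genes, of which 46.6% were negative. Beside Calm2, the genes Calm3, Camk2d and Camk1d had an unadjusted edgeR p below 0.05, making 4 of 9 against 22.2% of all genes. DESeq2 called Calm2, Calm3 and Camk2d, against 14.8% of genes, and limma voom called Calm3, against 17.8%. Calm2, Calm3 and Ppp3ca were lower in PiC-MeA without overlap, against 6.23% of genes, and Camk1d was higher without overlap, against 19.2%. As a percentage of the pan-neuronal sum, Calm2 and Calm3 had a lower mean in male PiC-MeA and the other 7 genes a higher one. The 2 projection comparisons do not share libraries with each other, but each shares its libraries with the sex comparisons. The test of whether the sex differences differ between PiC-MeA and PiC-PrL gave no edgeR call among the 9 or over all genes (0%). At an unadjusted p below 0.05 it held 4 of the 9, Camk2d, Ppp3cb, Camk1d and Calm2, against 15.6% of genes, and neither DESeq2 (8.46% of genes) nor limma voom (4.4%) called any of the 9.

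**Figure D4:**
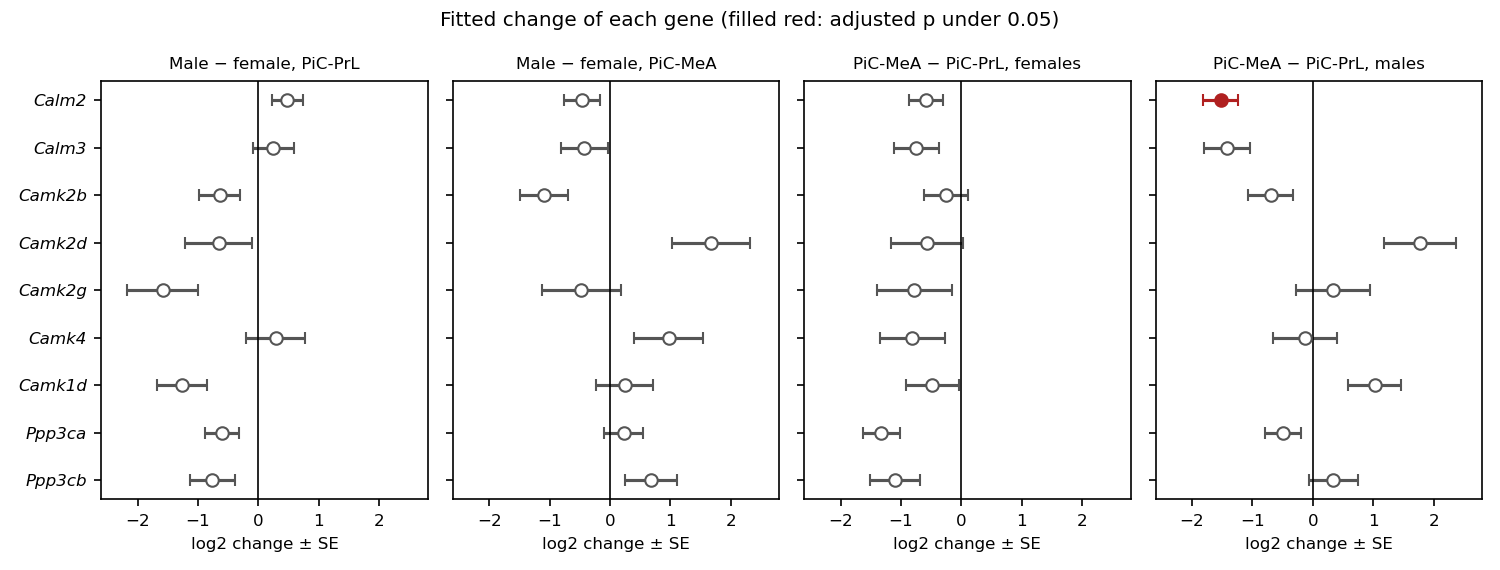
Log2 change ± SE of the 9 genes in each of the 4 comparisons (male minus female, or PiC-MeA minus PiC-PrL), with a filled red point where the edgeR adjusted p was under 0.05 and a line at 0. Calm2 in the male projection comparison, at −1.53, is the one value that passed with edgeR, and all 9 values lie below 0 for the projection in females.

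Another 35 genes of the pathway were examined by role, of which 32 passed the filter. With edgeR, 1 of the 32 passed for the projection in males, Gap43, which fell in PiC-MeA, against 0.603% of all genes. None passed in the other comparisons, as for all genes (0%). Gap43 encodes a growth cone protein that binds calmodulin. It measured 1639, 3046, 1672 and 3002 CPM in male PiC-PrL and 892, 560 and 378 CPM in male PiC-MeA, a log2 change of −1.94 ± 0.34 (edgeR adjusted p = 0.0140). DESeq2 and limma voom also called Gap43 there. When the fit held the count of detected genes as a term, edgeR called 0 genes in this comparison, so the Gap43 call was lost. In females the Gap43 means were close, at 1348 CPM in PiC-PrL and 1358 CPM in PiC-MeA. Pcp4, another gene of a calmodulin-binding protein, had a higher mean in male PiC-MeA, with overlap. It measured 84.6, 85.1, 97.3 and 229 CPM in male PiC-PrL and 102, 632 and 410 CPM in male PiC-MeA. DESeq2 called Pcp4 there, and edgeR and limma voom did not. Of the Pcp4 exon bases, 23.7% are shared with Igsf5 on the same strand, and how reads there were counted is not given. At an unadjusted p below 0.05 the 32 gave 4 genes for sex in PiC-PrL, 6 for sex in PiC-MeA, 3 for projection in females and 9 for projection in males, against 14.3%, 12.4%, 11.1% and 22.2% of all genes. DESeq2 called 1, 1, 2 and 8 of the 31 that it gave an adjusted p, in the same order, against 7.59%, 5.68%, 4.59% and 14.8% of all genes. Limma voom called 0, 5, 0 and 5, against 0.0548%, 11.9%, 0.212% and 17.8%. Their median log2 changes were −0.19, −0.54, 0.08 and −0.23, against −0.02, 0.12, −0.06 and 0.16 for all genes.

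Camk2n1, which encodes an inhibitor of CaM kinase II, averaged 1507 CPM in female PiC-PrL, 992 in male PiC-PrL, 328 in female PiC-MeA and 558 in male PiC-MeA. The female libraries measured 1204, 2828, 1123 and 872 CPM in PiC-PrL and 386, 316 and 282 CPM in PiC-MeA, without overlap, a difference of −2.20 ± 0.47 (edgeR adjusted p = 0.370). The other inhibitor gene, Camk2n2, had no count in any library. Among the other kinase genes Camkv, whose product resembles the CaM kinases but lacks their activity, measured 559, 377, 443 and 534 CPM in male PiC-PrL and 298, 97.3 and 75.1 CPM in male PiC-MeA, a difference of −1.61 ± 0.46 (edgeR adjusted p = 0.0790).

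Of the other calcineurin genes, Ppp3r1, which encodes the regulatory subunit that the catalytic subunits need, averaged 4.38, 13.7, 11.3 and 2.36 CPM in female PiC-PrL, male PiC-PrL, female PiC-MeA and male PiC-MeA. Its counts were 5 to 778 per library, and 14.3% of its exon bases are shared with Wdr92 on the same strand. No source used here says how reads in such shared bases were counted. Ppp3r2 had no count in any library. Ppp3cc, the third catalytic subunit gene, had no count in 8 libraries and up to 159 in the others. Akap5, which anchors calcineurin at synapses, averaged 287 and 255 CPM in female and male PiC-PrL and 84.9 and 88.4 CPM in female and male PiC-MeA. Its projection difference was −1.76 ± 0.52 in females and −1.53 ± 0.51 in males (edgeR adjusted p = 0.403 and 0.0934). Chp1, which encodes a calcium-binding protein related to the regulatory subunit, had a lower mean in males in both projections, by −0.96 ± 0.39 in PiC-PrL and −1.08 ± 0.46 in PiC-MeA (edgeR adjusted p = 0.289 and 0.357). Of the target genes the most abundant were Crtc1, a CREB coactivator that calcineurin dephosphorylates, and Ppp1r1a, an inhibitor of protein phosphatase 1. Crtc1 averaged 52.4 to 107 CPM and Ppp1r1a 30.9 to 98.9 CPM over the groups, with edgeR adjusted p of 0.176 or higher in every comparison.

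The genes most like each member were sought among 3734 genes with a mean of at least 50 CPM, by the root mean square difference of centred log2 CPM over the 14 libraries. Nearest to Calm2 were Cycs, which encodes cytochrome c, at 0.23 and Snap25, a gene of synaptic vesicle fusion that is also among the pan-neuronal markers, at 0.26. Calm3 had Cct2 at 0.37 and Rpl26 at 0.38, and Camk2b had Hsp90ab1 at 0.35 and Cox14 at 0.36. Ppp3ca had Ankrd12 at 0.36 and Arl1 at 0.39, and Ppp3cb had Rgs7bp and Mycbp2 at 0.35. Mycbp2 was also nearest to Camk1d, at 0.39, followed by Cnksr2 at 0.40. Camk4 had Sugt1 at 0.49 and Npepps at 0.53. Camk2g, with Osbpl8 at 0.63 and Kalrn at 0.66, and Camk2d, with Rtn4 at 0.66 and Psd3 at 0.67, had no gene as near. Camk2g and Camk2d also had the widest root mean square spread about their own mean, 0.98 and 0.95, against 0.57 to 0.76 for the other members. The distances were not scaled by that spread. Among the 36 pairs of members the nearest were the calcineurin subunits Ppp3ca and Ppp3cb at 0.51, followed by Calm2 and Calm3 at 0.52 and Calm2 and Ppp3ca at 0.53, and the farthest were Calm3 and Camk2d at 1.35. These distances describe 14 libraries in 4 groups that share depth and RNA composition within a library.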

How the data were processed

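The authors deposited 1 table of raw counts per gene for the 14 libraries; per the submitters' processing notes, reads were processed with Trimmomatic 0.39, HISAT2 2.2.1, SAMtools and featureCounts 2.0.1 on mm10. No source used here gives the annotation release, the strand setting or the treatment of reads with several matches, so overlapping genes and near copies are uncertain. Counts were tested with edgeR 4.0.16 (TMM, robust quasi-likelihood test, all 4 groups in 1 fit, filterByExpr with a minimum count of 10 and a total of 15, Benjamini-Hochberg over the 14599 genes tested, threshold 0.05), run in R 4.3.3 and tested on simulated data. In the simulated counts, edgeR recovered 2 to 3 of the 98 to 100 genes changed 4-fold in each of the 4 comparisons. Of the 97 to 99 genes changed 16-fold it recovered 19 to 26. The changed genes were drawn at random from those tested, and recovery was not measured for the 9 genes separately. A gene that does not pass may still differ. The SE is the log2 change divided by the root of F. DESeq2 1.42.0 and limma 3.58.1 (voom) were alternatives. Exon lengths and positions came from GENCODE M21 (GRCm38). Shares were compared with exact permutation tests. The 9 genes are named in every comparison; of the pathway list, those that passed and up to 2 per role with the highest mean CPM; and for each of the 9, the 2 genes of nearest pattern. Ppp3r2 was added after its values were seen. The genes and lists were chosen with earlier results of these data known. One gene of the pathway list is not reported here and was left out of that list and of the search for nearest patterns.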

Additional observations from a re-analysis of the deposited data

How the results depend on the processing

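Of 1089 recomputed log2 changes of the 9 genes, 1050 kept their direction and their side of the threshold and 22 turned their sign (15 results). With the sign kept, 11 gained a call and 6 lost one. The call of Calm2 in males that was lost with the covariate for detected genes is counted among the turned signs. The cause of each change was not tested. In the order sex in PiC-PrL, sex in PiC-MeA, projection in females, projection in males and difference between the sex differences, edgeR called 0, 0, 0, 88 and 0 genes of all tested. Without a filter on low counts, with 27912 genes tested, it called 38, 45, 46, 159 and 84. DESeq2 called 1017, 777, 628, 2022 and 1156, and limma voom 8, 1733, 31, 2604 and 643. The stricter filter of 10 counts in at least 7 libraries, and the fit without the robust option, each gave 1 gene for sex in PiC-PrL. For the projection in males, fitting only the groups compared gave 987 genes, the covariate for detected genes 0 and library totals (added after seeing the data) 32; the last gave 1 gene for sex in PiC-MeA. Among the 9 genes, the unfiltered fit called Calm2 in each of the 5 comparisons and Ppp3ca for the projection in females. These are 1, 1, 2, 1 and 1 genes, against 38, 45, 46, 159 and 84 of 27912. For Calm2 and the projection in males its edgeR adjusted p was 7.3e-31, against 0.0237 with the filter, and the reason was not tested. DESeq2 called 1, 0, 1, 3 and 0 of the 9, and limma voom called 1 for sex in PiC-MeA. The call of Calm2 in males was lost, leaving 0 of the 9 called, with the stricter filter (−1.41, edgeR adjusted p = 0.0519), the covariate and library totals, and it was lost with limma voom, which called Calm3.

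Signs turned with limma voom for Camk4 (−0.068 for sex in PiC-PrL and 0.37 for the projection in males), with library totals for Camk4 in males (0.36), and most often with the covariate for detected genes, which is largely the difference between male PiC-MeA and the other groups. With it Camk4 gave −0.087 for sex in PiC-PrL. For sex in PiC-MeA it gave 1.05 for Calm2, 0.58 for Camk2b and −1.55 for Camk2d. For the projection in males it gave 0.42 for Calm2, 1.43 for Camk2b, −2.30 for Camk2d, −0.82 for Camk2g, 1.94 for Camk4 and 0.20 for Ppp3ca, and for the difference between the sex differences 0.90, 1.60, −1.51 and −0.017 for Calm2, Camk2b, Camk2d and Camk2g. On the log2 ratio the Camk2b share gave −0.089 for sex in PiC-MeA and −0.088 for the projection in males.

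Leaving out each library in turn gave 0 to 1 genes for sex in PiC-PrL, 0 to 14 for sex in PiC-MeA, 0 to 1 and 20 to 139 for the projection in females and males, and 0 to 5 for the difference; 0 to 1 of the 9 genes were called for the projection in males. Ranges that crossed 0 were, for the projection in males, −0.56 to 0.15 for Camk4 and −0.12 to 0.51 for Ppp3cb. The Ppp3ca share ran from −0.904 to 4.54 points for sex in PiC-PrL and from −4.71 to 1.94 for the projection in females. The Camk2b share ran from −6.81 to 6.93 for sex in PiC-MeA and from −7.00 to 6.74 for the projection in males. The Calm2 share ran from −0.00895 to 0.614 for the projection in females, −0.614 to 0.359 for the projection in males and −0.564 to 0.409 for sex in PiC-MeA. None of these results passed in the first place, and the share tests could not have passed.

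Same-numbered libraries did not deviate together (19 pairs, r from −0.0388 to 0.0407). The labels name no libraries that share an animal or a collection date, so the r of truly paired tubes is unknown. Whether the numbers pair the samples therefore cannot be decided from these values. A replicate block lowered the count for the projection in males to 38 genes; Calm2 still passed (edgeR adjusted p = 0.0143) and Camk4 gave 0.15.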
